A study of Mus musculus with 5 samples.

Results

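The transcripts described here encode the receptors through which group 2 innate lymphoid cells (ILC2s) sense the alarmins IL-33, IL-25 and TSLP and the cytokines IL-1 and IL-18. The set was defined by name and held 9 genes: Il1rl1, Il1rap, Il18r1, Il18rap, Il1r1, Il1r2, Il17rb, Il17ra and Crlf2. A gene counted as measured where the platform annotation paired a probe set with its symbol and no other, and the brightest such probe set stood for it. By that rule 8 of the 9 were measured, among 22180 genes in all. No probe set was paired with Il1rl1, the gene of the ligand-binding IL-33 receptor chain ST2, so Il1rl1 was not analysed here. Of the 8, Il1r1 was among the 25% of genes with the lowest mean and is given by its values only, which left 7 receptor genes among the 16635 genes tested.

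The cells were ILC2s from the lungs of naive adult male mice, either wild type (3 arrays) or IL-33 knockout (2 arrays), and the labels call each array a biological replicate. Total RNA was biotin-labelled for Affymetrix arrays, and the values are log2 signals after robust multi-array averaging (RMA). Strain, knockout allele, sorting gate and the number of mice per array are not given in the sources used here. The comparison asks how the receptor transcripts stand in cells from mice that lack 1 of the alarmins. A p-value here measures the spread between these arrays, and their number limits the precision of every value.

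IL-1 family receptors work as pairs: a ligand-binding chain recruits an accessory chain, and the joined intracellular TIR domains bring in the adaptor MyD88 and the IRAK kinases. IL1RAP is the accessory chain shared by the IL-33 and IL-1 receptors, and the IL-18 receptor has its own, IL18RAP. IL-25 binds IL-17RB paired with IL-17RA and signals through the adaptor Act1, while TSLP binds CRLF2 paired with the IL-7 receptor alpha chain and signals through JAK kinases and STAT5. In lung ILC2s the IL-33, IL-25 and TSLP receptors are known as the main triggers of type 2 cytokine release.

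The promoter windows of 4 receptor genes are shown because their transcripts carry the comparisons below: Il17rb separated the genotypes, Crlf2 encodes the TSLP-binding chain, and Il18r1 and Il18rap shifted in opposite directions. Each runs 5′ to 3′ from 250 bases before to 50 bases after a RefSeq start of assembly GRCm38.p6. Capitals mark matches on either strand to 5 short motifs: AGATAA, which GATA factors recognise, TGACTCA, the AP-1 site, GGGCGG, known as the GC box, TATAAA, the TATA box, and AGGAAG, a core for ETS factors. Il18r1 has 3 annotated starts, of which the most upstream is shown.
Il17rb, chr14:30008847-30009146, strand -: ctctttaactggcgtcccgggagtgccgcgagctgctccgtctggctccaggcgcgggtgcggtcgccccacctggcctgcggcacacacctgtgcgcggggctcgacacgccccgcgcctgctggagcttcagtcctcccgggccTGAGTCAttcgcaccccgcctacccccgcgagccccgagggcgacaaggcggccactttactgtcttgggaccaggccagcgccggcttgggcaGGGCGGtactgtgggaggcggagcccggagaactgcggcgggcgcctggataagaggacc
Crlf2, chr5:109558944-109559243, strand -: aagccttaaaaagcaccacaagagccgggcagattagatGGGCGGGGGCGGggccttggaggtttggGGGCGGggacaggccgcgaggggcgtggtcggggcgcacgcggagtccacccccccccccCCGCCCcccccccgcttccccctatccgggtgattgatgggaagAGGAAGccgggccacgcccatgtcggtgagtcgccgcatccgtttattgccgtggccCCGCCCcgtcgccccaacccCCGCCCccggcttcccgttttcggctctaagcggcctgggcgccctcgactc
Il18r1, chr1:40465302-40465601, strand +: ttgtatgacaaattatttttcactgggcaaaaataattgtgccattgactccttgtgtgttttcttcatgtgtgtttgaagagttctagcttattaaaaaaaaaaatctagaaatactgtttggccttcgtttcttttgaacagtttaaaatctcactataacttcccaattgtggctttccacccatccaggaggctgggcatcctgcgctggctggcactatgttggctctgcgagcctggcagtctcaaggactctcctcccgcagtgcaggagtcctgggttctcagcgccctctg
Il18rap, chr1:40515112-40515411, strand +: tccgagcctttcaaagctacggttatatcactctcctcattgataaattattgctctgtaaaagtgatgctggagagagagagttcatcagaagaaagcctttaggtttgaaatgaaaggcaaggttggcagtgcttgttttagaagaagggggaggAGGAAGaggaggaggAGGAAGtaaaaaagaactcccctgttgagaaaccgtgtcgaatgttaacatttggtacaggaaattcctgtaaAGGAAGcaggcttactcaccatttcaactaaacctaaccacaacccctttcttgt

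In the Il17rb window the AP-1 letters began 104 bases and the GC box 10 bases before the start. The AP-1 letters occur in 5.2% of 32851 promoter windows of the same table and length, and GC boxes in 35.7%. The Crlf2 window held 6 GC boxes, the nearest beginning 2 bases before the start, and 1 match to AGGAAG. Il18rap held 3 matches to AGGAAG, at 93, 78 and 5 bases before the start, letters found in 35.4% of all windows. The Il18r1 window shown held none of the 5 motifs, while that of its most downstream start held AGGAAG 7 bases before the start. RefSeq windows were matched by symbol for 8 of the 9 genes (the exception was Il17ra), with 12 windows between them, and AGATAA lay in 2 of the 12, both of Il1rl1, against 11.2% of all windows. A match is a description of letters, and no binding was measured.

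Before the receptors, the arrays were checked against their labels. Medians lay between 4.29 and 4.33 on all 5 arrays. The ILC2 markers Il7r, at 11.26 to 11.45, and Gata3, at 7.89 to 8.50, gave signal above the filter on dim genes on all 5 arrays. Of the T cell markers, Cd3g was bright, at 9.10 to 9.74, and the others measured were dimmer. Cd3e read 4.88 to 5.86, Cd3d 4.38 to 5.38, and Cd4, Cd8a, Cd8b1 and Cd5 lay between 3.41 and 4.22. The 16 ILC2 markers listed differed by a median of -0.23 over the 15 tested, as log2 knockout signal minus wild-type signal. Knockout replicate 2 stood apart from its male label: Xist, the transcript of the inactive X chromosome, read 7.91 there against 2.35 to 3.10 on the other arrays. Y-linked genes gave signal there too, but not alike. Eif2s3y, at 6.14 against 6.82 to 7.62, and Kdm5d, at 4.79 against 5.57 to 5.63, were at their lowest. Uty, at 7.17 against 5.83 to 6.96, was at its highest. Of the lung tissue cell lists, the epithelial and endothelial means were higher in both knockout arrays. The fibroblast mean overlapped, at 3.775 and 3.968 in knockout and 3.71 to 3.82 in wild type. The mean of 11 lung epithelium markers was 5.53 in knockout replicate 1, 4.86 in replicate 2 and 4.41 to 4.57 in wild type. In replicate 1 the airway secretory genes Bpifa1, at 8.52, and Scgb1a1, at 8.81, carried it: over the other 9 markers the means were 4.84 and 4.92 against 4.57 to 4.71. The mean of 8 endothelial markers was 5.005 and 5.292 against 4.745 to 4.895, with the junction genes Cldn5 and Cdh5 higher by 1.59 and 1.44. The rest of that list did not follow them. Pecam1, Vwf and Tie1 differed by 0.09, 0.07 and 0.09 with overlap, and Kdr, Tek and Emcn by -0.15, -0.17 and -0.37. Each receptor difference is therefore also given without each of the 2 knockout arrays. In sorted bulk RNA, fewer cells of a type and less RNA per cell cannot be told apart.

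**Figure D1:**
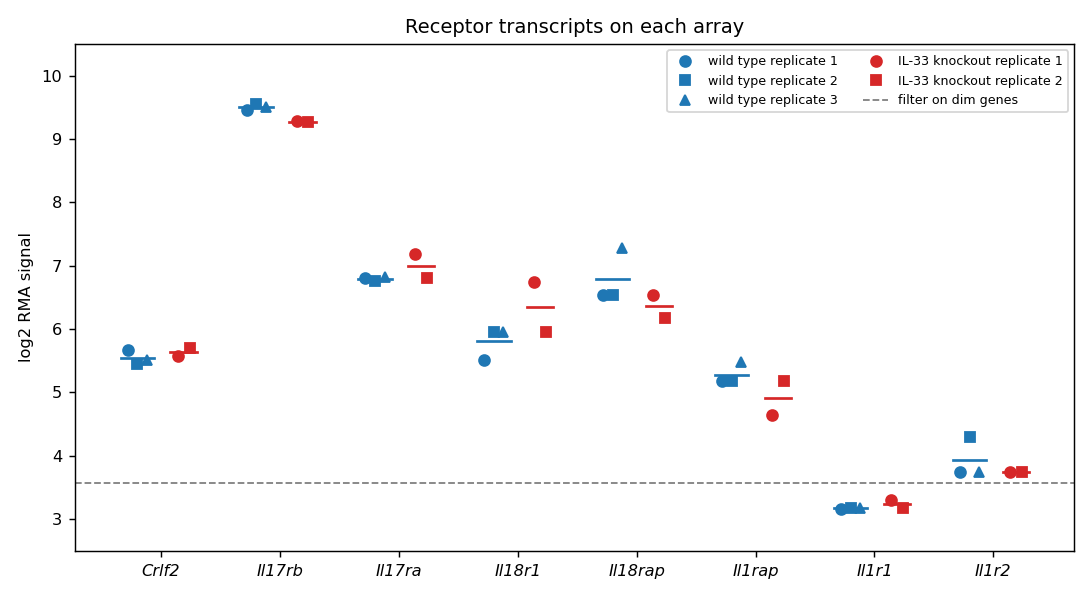
Log2 RMA signal of the 8 measured receptor genes (x axis, genes; y axis, log2 signal); each symbol is 1 array and each bar a group mean, with the level of the filter on dim genes, 3.56, dashed. Only Il17rb has both knockout arrays outside the wild-type range, and signals of different genes come from different probes and are not compared.

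None of the 7 receptor genes tested passed limma's test after Benjamini-Hochberg adjustment over all genes, and neither did any other gene: the share called was 0% of 16635, with a lowest adjusted p of 0.327. At an unadjusted p below 0.05 there was 1 receptor gene, Il17rb, in the downward direction, where the share over all genes was 7.64% (2.59% downward and 5.05% upward). Likewise 1 of the 7 had groups that did not overlap, in the downward direction, where 6.32% of all genes did so downward and 18.0% in either direction. Among the 7, 3 differences lay above 0 and 4 below, with a median of -0.18 against 0.04 over all genes tested. These shares are near the background, and the receptors did not shift together in 1 direction.

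Il17rb, which encodes the IL-25-binding chain, was the receptor gene that separated the genotypes. It read 9.46, 9.56 and 9.50 in the wild-type arrays and 9.29 and 9.26 in the knockout arrays. Both knockout arrays lay below all 3 wild-type arrays, and all 5 values were distinct. The means were 9.51 ± 0.05 (SD, n = 3) and 9.28 ± 0.02 (SD, n = 2), a 1.17-fold lower signal in knockout. The log2 difference was -0.23 (SE 0.05, 95% interval -0.37 to -0.09, not adjusted for the number of genes), with an unadjusted p of 0.0101 in limma's moderated test and an adjusted p of 0.467. It was -0.24 without knockout replicate 1 and -0.22 without knockout replicate 2, so neither array alone carried it. When testing was restricted, after seeing the data, to genes with at least 4 distinct values, the difference stayed the same. The unadjusted p of limma's moderated test was then 0.179, so the p and interval depend on which other genes enter the fit. The ILC2 marker list had a median of the same size as the Il17rb difference, -0.23, with 11 of 15 tested members lower and 4 higher. Its members were not uniform: Icos differed by 1.27 and Nmur1 by -0.56, both without overlap. Of the tested markers, 8 of 10 epithelial and 5 of 6 endothelial ones were higher, where 57.1% of all genes tested lay above 0. The part of these marker shifts in the Il17rb difference was not tested.

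Il17ra encodes the chain that IL-17RB pairs with and that other IL-17 receptors share. It read 6.81, 6.76 and 6.82 in wild type, a narrow range, and 7.19 and 6.81 in knockout. Replicate 1 alone was high, while the value of knockout replicate 2 was identical to that of wild type replicate 1. The difference was 0.20 (SE 0.13, 95% interval -0.17 to 0.58, limma's adjusted p 0.623), and it was 0.01 without knockout replicate 1 and 0.40 without replicate 2. The means of the epithelial and endothelial marker lists were higher in both knockout arrays, with the airway secretory genes highest in replicate 1. The part of such cells in the Il17ra value was not tested.

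Crlf2 encodes the TSLP-binding chain. Its signal was 5.67, 5.44 and 5.51 in wild type and 5.58 and 5.71 in knockout. The knockout arrays fell inside and just above the wild-type range. The difference was 0.10 (SE 0.09, 95% interval -0.16 to 0.37, limma's adjusted p 0.659), an interval that does not reach a 2-fold change either way. It was 0.17 without knockout replicate 1 and 0.04 without replicate 2. Its partner Il7r read 11.38, 11.26 and 11.38 in wild type and 11.45 and 11.44 in knockout, both above the wild-type arrays, with a difference of 0.10 (SE 0.06, limma's adjusted p 0.623). The sign of Il7r turned to -0.03 after quantile normalization of the arrays.

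Il1rap encodes the accessory chain of the IL-33 and IL-1 receptors. At its brightest probe set it read 5.18, 5.18 and 5.48 in wild type and 4.65 and 5.18 in knockout. The low value was that of knockout replicate 1 alone, and 3 arrays shared 1 exact value. The difference was -0.36 (SE 0.21, 95% interval -0.96 to 0.23, limma's adjusted p 0.623) with -0.10 without knockout replicate 1 and -0.63 without replicate 2. Of the 2 further Il1rap probe sets, 1 read 4.07, 3.54 and 3.82 in wild type and 3.69 and 3.10 in knockout, a difference of -0.41, with replicate 2 the lower there. The other read 2.53 on 4 arrays and 2.87 in knockout replicate 1, a difference of 0.17. The probe sets of this gene therefore disagree on which knockout array was low.

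**Figure D2:**
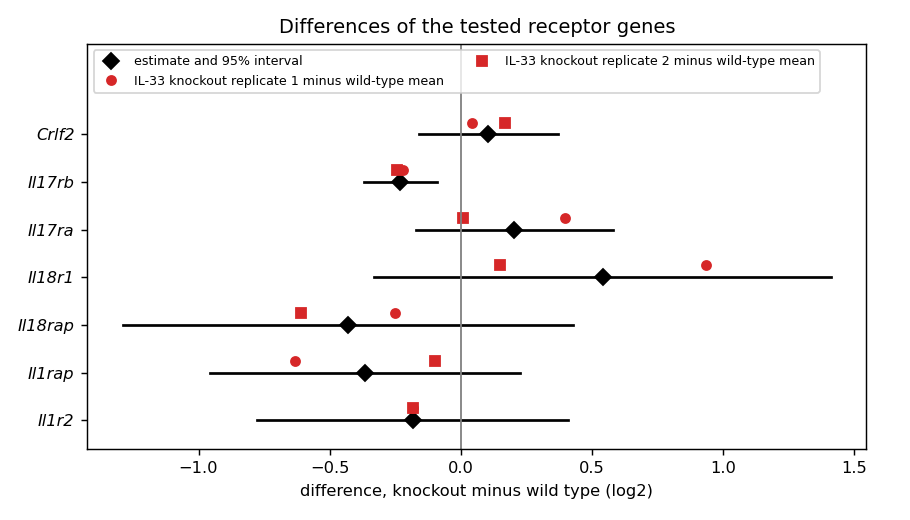
Difference between knockout and wild type (x axis, log2) for the 7 receptor genes tested (y axis); diamonds and lines are limma's estimate and 95% interval, and red symbols are each knockout array minus the wild-type mean. The interval of Il17rb, -0.37 to -0.09, is the narrowest and the only 1 that leaves out 0, and for Il17ra, Il18r1 and Il1rap the 2 knockout arrays lie apart (for Il1r2 they coincide). With only genes of at least 4 distinct values in the fit, limma's unadjusted p for Il17rb was 0.179.

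The IL-18 receptor chains differed in opposite directions, and neither passed. Il18r1, the ligand-binding chain gene, read 5.51, 5.96 and 5.96 in wild type and 6.75 and 5.96 in knockout. Knockout replicate 1 was above every other array, and replicate 2 equalled wild type replicates 2 and 3 exactly. Its difference was 0.54 (SE 0.31, 95% interval -0.33 to 1.41, limma's adjusted p 0.623), with 0.15 without knockout replicate 1 and 0.93 without replicate 2. Il18rap, the accessory chain gene, read 6.55, 6.54 and 7.28 in wild type and 6.54 and 6.18 in knockout. Here wild type replicate 3 was the high array and knockout replicate 2 the low one. The difference was -0.43 (SE 0.31, 95% interval -1.29 to 0.43, limma's adjusted p 0.623), and -0.18 without wild type replicate 3. Without knockout replicates 1 and 2 in turn it was -0.61 and -0.25. IL-18 receptor transcripts are also known from T and NK cells. The T cell marker mean was 5.12 to 5.16 in wild type and 5.10 and 5.07 in knockout. The NK cell and ILC1 mean was 3.72 to 3.89 against 3.87 and 4.27. In knockout replicate 2, Gzma read 6.56 against 3.27 to 4.01 on the other arrays, and Klre1 3.22 against 2.43 to 2.76. Ncr1, Prf1, Tbx21 and Eomes equalled a wild-type value there, and Klrb1c lay within the wild-type range. The part of T and NK cells in the receptor values was not tested.

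The IL-1 binding receptors were near or below the filter on dim genes, at 3.56. Il1r1, the signalling IL-1 receptor gene, read 3.16, 3.18 and 3.18 in wild type and 3.30 and 3.18 in knockout. All 5 arrays lay below the filter, and no test was made. The difference of the means was 0.07, or 0.01 and 0.12 without knockout replicates 1 and 2 in turn. Il1r2, the decoy receptor gene that binds IL-1 without signalling, read 3.75 on 4 arrays and 4.30 in wild type replicate 2. The difference of -0.18 (SE 0.21, 95% interval -0.78 to 0.41, limma's adjusted p 0.728) thus came from 1 wild-type array, and it was 0 without it and -0.18 without either knockout array. Il1r2 is known from neutrophils and other myeloid cells, and the same array had the highest wild-type signals of Lyz2, 5.58 against 2.98 and 2.47, and Retnlg, 5.36 against 2.51 and 2.00. The mean of 8 neutrophil markers was 4.11 in that array and 3.51 and 3.59 in the other wild-type arrays. The markers of that list did not all follow Retnlg. Among wild type, S100a8 and S100a9 were also highest in that array, Ly6g and Mmp8 lay in the middle, and Cxcr2 was lowest, at 4.96 against 5.15 and 5.38. Csf3r had 1 value on all 3 wild-type arrays, and Ngp tied with wild type replicate 3. Knockout replicate 1 had a neutrophil mean of 4.21 with Il1r2 at 3.75, and the part of such cells in the Il1r2 value was not tested.

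Exact ties were common among the receptors, as they were over all genes tested. In knockout replicate 2, 5 of the 8 genes had a value identical to that of a wild-type array, and in replicate 1, 2 of 8 did. The share over all genes was not counted for such matches, so these counts are not read as a trait of the receptors. Of the 7 genes tested, 5 had fewer than 5 distinct values, where the share over all genes tested was 63.6%. Ties make the spread of a gene too small or 0, as for Il1r2 in the knockout arrays. The moderated test in limma draws on the spread of all genes tested, so tied genes also enter the p and interval of Il17rb.

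Within an array, the difference between the log2 signals of paired chains does not depend on a factor common to the whole array. Il18r1 minus Il18rap was -1.03, -0.57 and -1.32 in wild type and 0.21 and -0.22 in knockout. Both knockout arrays were above all wild-type arrays, and the group means were -0.98 ± 0.38 (SD, n = 3) and -0.005 ± 0.30 (SD, n = 2), a shift of 0.97. The shift ranged from 0.76 to 1.19 when single arrays were left out, 0.76 being the value without knockout replicate 1. Neither chain alone separated the genotypes, and the shift was not tested.

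Il17rb minus Il17ra was 2.66, 2.79 and 2.68 in wild type and 2.09 and 2.46 in knockout. Here both knockout arrays were below all wild-type arrays, as they were for Il17rb alone, so the separation of the pair is not independent of that gene. The means were 2.71 ± 0.07 (SD, n = 3) and 2.28 ± 0.26 (SD, n = 2). The shift was -0.43, which was -0.25 without knockout replicate 1 and -0.62 without replicate 2. Il17rb itself differed by -0.24 and -0.22 in these cases, and Il17ra by 0.01 and 0.40. Crlf2 minus Il7r lay between -5.87 and -5.72 on all 5 arrays, with a shift of 0.01 and overlapping groups (0.07 and -0.06 without knockout replicates 1 and 2 in turn). Il1r1 minus Il1rap overlapped as well, but Il1r1 was below the filter on dim genes on all arrays, so that pair mostly follows Il1rap and its size is not read. The pairs were not tested: with 5 arrays there are 10 ways to split them, so the lowest p of an exact permutation test is 0.1. The 18.0% of single genes that separated is no background for pairs.

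**Figure D3:**
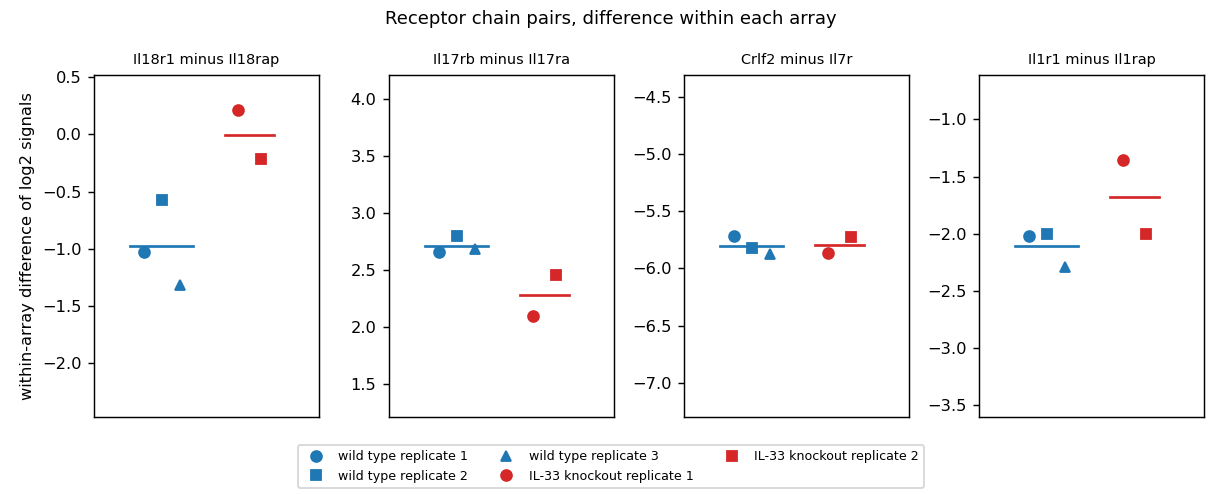
Difference of the log2 signals of receptor chains within each array (y axis, log2; each panel spans 3 log2 units) for 4 chain pairs, with symbols for arrays and bars for group means. The knockout arrays lie above the wild-type arrays for Il18r1 minus Il18rap and below them for Il17rb minus Il17ra, and overlap them for the other pairs (Il1r1 is below the filter on dim genes).

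The genes with the array pattern most like Il17rb were Tram1, Rac2 and Mrpl4. Likeness was the root mean square difference over the 5 arrays after each gene's own mean was subtracted, over 14246 named genes. It was 0.021 for Tram1, which encodes a protein of endoplasmic reticulum translocation, 0.033 for Rac2, a small GTPase gene of blood cells, and 0.036 for Mrpl4, a mitochondrial ribosomal protein gene, where Il17rb itself deviated from its mean by 0.117. Their differences were -0.21, -0.23 and -0.23. For Crlf2 the nearest were Lrrc3 at 0.017, Tcf19 at 0.029 and Uqcrfs1 at 0.030, with differences of 0.10, 0.08 and 0.13. These genes were picked for their likeness out of all those compared, and the patterns cover only 5 arrays.

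Most of the IL-1 family receptor genes sit side by side on chromosome 1. In the gene order of GRCm38.p6 the run is Il1r2, Il1r1, Il1rl2, Il1rl1, Il18r1 and Il18rap. Il1rl2, the IL-36 receptor gene within it, read 4.90, 4.82 and 4.98 in wild type and 4.82 and 4.12 in knockout. Knockout replicate 2 was the low array, and the difference was -0.43 (SE 0.24, limma's adjusted p 0.623), with -0.08 without that array and -0.78 without replicate 1. Of the measured genes just outside, Map4k4 differed by -0.06 and Gm16894 by 0.28 (0 without knockout replicate 2) on the Il1r2 side, while Slc9a4 had 1 value, 3.73, on all 5 arrays and Slc9a2 differed by -0.01. Within the run, differences therefore lay on both sides of 0, from -0.43 for Il18rap and Il1rl2 to 0.54 for Il18r1. No measured gene of it had groups without overlap, where 18.0% of all genes tested had. Too few genes were measured to read this as a trait of the run.

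Ligands and signalling genes of these pathways were read from 5 lists with 58 genes, of which 49 were measured and 41 tested. None passed limma's adjusted test, 21 differences lay above 0 and 20 below, and the median was 0.01. At an unadjusted p below 0.05 there was 1 gene, 2.44% of the 41 against 7.64% of all genes. The groups did not overlap for 6 of the 41, 14.6% against 18.0% of all genes. Neither share exceeded the background.

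Among ligands and soluble antagonists, 7 of 16 were tested. Il33 read 3.32 to 3.39 in wild type and 3.79 and 3.95 in knockout, and lay in the dimmest 25% by its mean. Where its probes lie relative to the deleted part is not stated, so the probe set does not check the genotype. Il18bp, which encodes a soluble IL-18 trap, read 5.53, 5.35 and 6.07 in wild type and 6.04 and 5.98 in knockout, with overlap of the groups. Its difference was 0.36 (SE 0.25, limma's adjusted p 0.623). Il1f10, the IL-38 gene, was the 1 tested ligand gene without overlap, at 4.26 to 4.55 in wild type and 4.68 and 4.62 in knockout, a difference of 0.24. Among the ligand genes too dim to test, Il33 and Il7 lay higher and Il18 lower in both knockout arrays. Il1rn, the IL-1 receptor antagonist gene, read 3.98 on 4 arrays and 4.27 in knockout replicate 2, and Il17a differed by -0.43 with overlap (-0.14 without knockout replicate 2). Il25 and Tslp differed by less than 0.05.

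Of the partner and related receptor genes, 6 of 8 were tested. Sigirr, which encodes an inhibitory member of the IL-1 receptor family, read 6.58, 6.49 and 6.65 in wild type and 6.46 and 6.37 in knockout. Both knockout arrays lay below the wild-type arrays, with a difference of -0.15 (SE 0.07, limma's adjusted p 0.623). Il17rc, a further IL-17 receptor chain gene, differed by 0.25 with overlap of the groups, and by 0.11 without knockout replicate 2.

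In the MyD88 branch 19 of 22 genes were tested, 9 with differences above and 10 below 0 and a median of -0.04. Mapk14, the p38 alpha kinase gene, read 6.89, 6.79 and 6.98 in wild type and 7.53 and 7.12 in knockout. It lay higher in both knockout arrays, by 0.44 (SE 0.15, unadjusted p 0.0477 and adjusted p 0.623 in limma). Without knockout replicate 1 this was 0.23, with an unadjusted p of 0.121 in limma. Mapk8, the JNK1 gene, read 6.97, 7.76 and 7.98 in wild type and 8.33 and 8.36 in knockout, a difference of 0.77 (SE 0.35, limma's adjusted p 0.623) that was 0.47 without wild type replicate 1. Ikbkb, which encodes the IKK beta kinase, was lower in both knockout arrays, at 7.84 and 6.99 against 7.85 to 7.92, although replicate 1 was only just below. Irak1 differed by 0.50 with overlap, and by 0.28 without knockout replicate 1, and the adaptor gene Myd88 read 6.77 to 7.40 in wild type and 6.92 and 6.80 in knockout.

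Adaptors of the IL-17 receptors and the TSLP receptor's kinases and STATs gave no separated gene. Traf3ip2, the Act1 gene, read 7.40, 7.43 and 7.45 in wild type and 7.64 and 6.98 in knockout, so that the knockout arrays lay on opposite sides. Traf2 did so as well, at 5.31 and 6.83 against 6.51 to 6.61, and Traf4 differed by 0.62 (0.28 without knockout replicate 1) and Traf5 by -0.01 with overlap. Of 5 kinase and STAT genes tested, Stat5a differed by -0.15, Stat5b by 0.17, Stat3 by -0.04 and Jak2 by 0.03. Jak2 lay on opposite sides of the wild-type range in the knockout arrays, at 8.63 and 7.85 against 7.93 to 8.37.

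**Figure D4:**
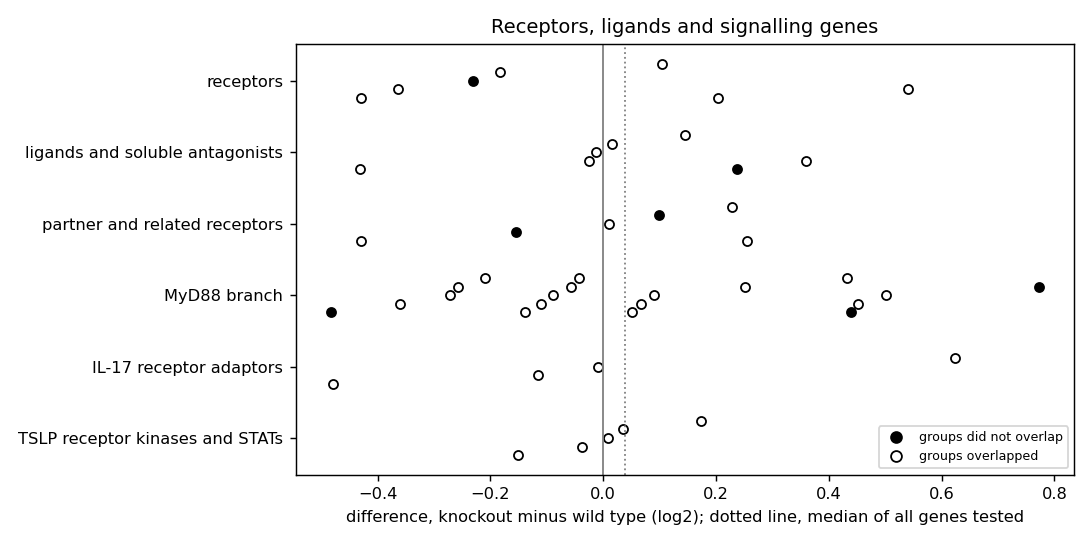
Difference between knockout and wild type (x axis, log2) for each tested gene of the receptor set and of the 5 pathway lists (y axis); filled circles are genes whose groups did not overlap, 1 of 7 receptors and 6 of 41 pathway genes. Points lie on both sides of 0 in every list, and the dotted line marks the median of all genes tested, 0.04.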

How the data were processed

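The log2 values of 41345 probe sets on 5 arrays were used as deposited by the authors. They were made in Affymetrix Expression Console by RMA, per the submitters' processing notes; versions, settings and genome build are not given in the sources used here. Of the probe sets, 23521 had 1 symbol in the platform annotation, 1814 several and 16010 none, and 23328 of the first were found by gene identifier in the RefSeq table of GRCm38.p6. The brightest probe set stood for each of 22180 genes, and the dimmest 25% were left out, leaving 16635. RMA as commonly run equalises arrays, so a change common to all transcripts would not show.

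The genotype comparison used limma 3.58.1 under R 4.3.3 (lmFit, eBayes, Benjamini-Hochberg over all genes tested, threshold 0.05, no block), checked on simulated arrays. Those arrays took their spread from the same fit and held no exact ties, so the check does not cover the ties seen here. The receptors and lists were chosen with earlier results of these data known. Named genes were the receptors, up to 4 genes of smallest p per pathway list, the neighbours on chromosome 1 and the 3 nearest patterns of Il17rb and Crlf2; the rule also took sex check genes and the brightest markers of each list. Il25, Tslp, Myd88, Il33, Il7, Il18, Gata3, Bpifa1, Lyz2, Retnlg, Cldn5 and Cdh5 and the promoter motifs were added after values were seen. Further marker and pathway genes outside the rule were also named after values were seen, among them Icos, Irak3, Kdr and Gzma. Alternatives covered the filter, probe sets, scaling, variance model, weights, block, threshold and leaving out arrays.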

Additional observations from a re-analysis of the deposited data

How the results depend on the processing

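No receptor gene passed limma's adjusted threshold under any of the 15 alternatives that tested it, and no receptor gene's difference turned its sign, although that of Il1r2 was 0 without wild type replicate 2. Il17rb kept its downward direction, between -0.30 and -0.21, with adjusted p from 0.148 to 0.793. Its unadjusted p was 0.0988 with the replicate number as a block and 0.179 when testing was restricted, after seeing the data, to genes with at least 4 distinct values. Leaving out single arrays moved the whole-table count from 0 to between 0 and 1077 genes (1077 without knockout replicate 1, 401 without knockout replicate 2) and the pathway count to between 0 and 4 (4 and 2 in the same order), where the lone knockout array takes its spread from wild type. The pathway genes in these counts were Il1rn, Irak3, Ikbkb and Traf3ip2 without replicate 1 and Irak3 and Traf2 without replicate 2. The whole-table count rose in the same fits, so the pathway counts are not read as a trait of these lists. Il1rn and Irak3 each had an identical value on every wild-type array, so their wild-type spread was 0.

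Crlf2 minus Il7r lay between -0.06 and 0.07 with single arrays left out and moved to 0.20 after quantile normalization, as Il7r turned to -0.032; the cause was not tested. Differences also turned sign when single arrays were left out for Traf2 (-1.24 to 0.28), Traf3ip2 (-0.45 to 0.22), Stat5b (-0.066 to 0.45), Stat3 (-0.12 to 0.044), Jak2 (-0.36 to 0.43) and Map4k4 (-0.13 to 0.045). Map4k4 was at 0.045 with the replicate block too. The block changed no other direction and no call. Equal numbers are not said to mark pairs, and correlations of the arrays' deviations across genes cannot decide it. The knockout deviations mirror each other, so each correlation returns with the opposite sign for the other knockout array. Same-numbered arrays gave -0.046 and 0.143, and wild type replicate 3 gave 0.189 and -0.189 with knockout replicates 1 and 2. The alternatives for chain pairs were added after seeing the data.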
